A study of Mus musculus with 4 samples.

Results

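The urea cycle and amino acid breakdown genes described here are 43 genes for enzymes and carriers that take amino acids apart in the liver and turn their nitrogen into urea. They were chosen by name and not by their values, though with earlier results of these data known. They were found on the arrays through the transcript accession of each probe. They have 59 of the 56605 probes that are not controls and make up 43 of the 23462 genes that probes could be matched to. Of the 43 genes, 27 have 1 probe and 16 have several. Liver RNA came from male mice, 24 weeks old, on a C57BL/6 background. F/F mice carry the floxed Lpiat1 gene (Lpiat1F/F) and served as controls. LKO mice carry the same floxed alleles with Alb-Cre, in which the albumin promoter drives the Cre recombinase in hepatocytes, so that the other cells of the liver keep the gene. Lpiat1, listed by the arrays as Mboat7, encodes the enzyme that attaches arachidonic acid to lysophosphatidylinositol, which yields phosphatidylinositol. From 6 weeks of age, mice of both genotypes were fed chow (CE2) or a high fat diet (HFD, HFD-60) for 18 weeks. A single array was hybridised for each of these 4 kinds of liver, and the sources used here do not say whether its RNA came from 1 mouse or from several. Differences between arrays therefore carry no replicate error, and no test was made.

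Amino acids that are not used for protein are broken down mostly in hepatocytes. Transaminases and other enzymes remove the amino group, the carbon skeletons enter the citric acid cycle or become ketone bodies or glucose, and the ammonia that is set free enters the urea cycle. The cycle begins in mitochondria, where carbamoyl phosphate is made and joined to ornithine, and ends in the cytosol, where arginase releases urea. Many of these enzymes are made almost only in liver, and in mice their RNA is known to follow protein intake, glucagon and glucocorticoids.

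Levels are given as the processed signal, the brightness of a probe after background subtraction by the scanner software. Signals are printed unscaled. Differences are in log2 units, each array having been scaled by the 75th percentile of its own spots, so that -1 is a 2-fold lower level. The brightest probe stands for a gene. Every array showed all 43 genes well above background, and 32 of them had a mean signal of at least 4000, a level that 1915 of all genes reached and that was chosen after values had been seen. Repeat spots of 1 probe on an array differed with an SD of 0.0931 (log2) above background, which leaves out all differences between mice. A gene was counted as higher or lower at 1.5-fold, a log2 difference of 0.585. The labelled tissue was borne out by its markers: all 10 hepatocyte markers were well above background on every array, with summed signals between 1267239 (LKO HFD) and 1349901 (F/F chow). The single Mboat7 probe gave signals of 1102 in F/F and 861 in LKO on chow, and of 1181 and 1100 on HFD. Where that probe lies relative to the deleted exons was not established, so it checks nothing about the genotype labels.

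On chow, the levels of the 43 genes were close in the 2 genotypes. On HFD, nearly all of them were lower in LKO than in F/F, by a modest amount. Against chow, levels on HFD were lower for 33 of the genes in F/F and for 42 in LKO. Beside these were 52.2% and 56.5% of all genes, and 64.8% and 82% of those with a mean signal of at least 4000. Both counts depend on the scale. Without scaling between arrays they were 22 and 28, beside 28.3% and 16.4% of all genes. With each array set to the mean of the hepatocyte markers they were 17 and 23, beside 19.3% and 13.5%. At least 1.5-fold lower on HFD in both genotypes were Cps1 (the first enzyme of the urea cycle) and Asl of the same cycle, Afmid (kynurenine formation), Aass (lysine breakdown), and Gnmt, Ahcy and Cth of the methionine pathway. These 7 genes depend on the scale: without scaling between arrays Afmid alone was past 1.5-fold in both genotypes, and with each array set to the hepatocyte markers (by median or mean) 0 genes were.

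**Figure D1:**
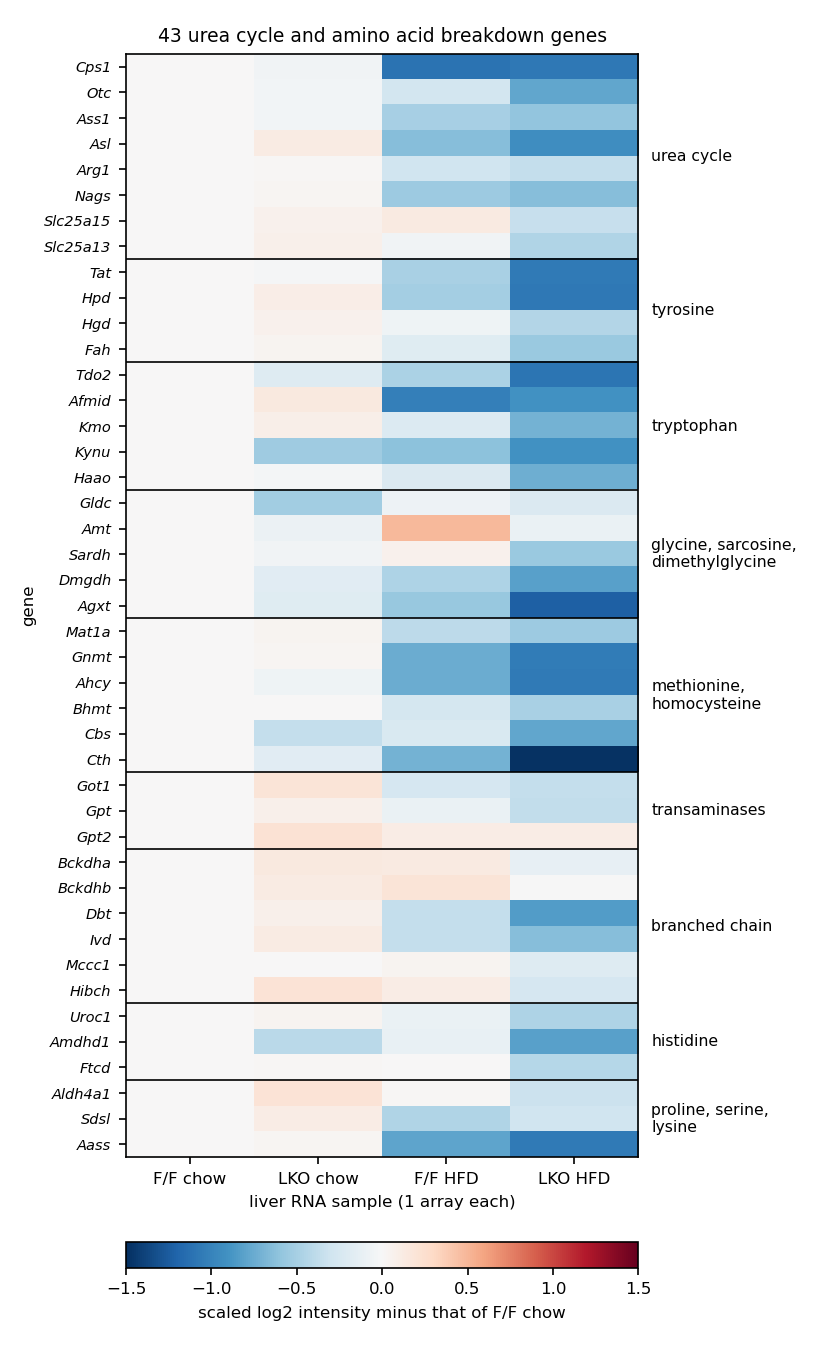
Scaled log2 intensity of each of the 43 genes (rows, by pathway) on the 4 arrays (columns), minus that on the F/F chow array, whose column is 0 by construction. Blue is lower and red is higher than F/F chow, 1 array per column with no replicates; the LKO chow column is mostly pale and the LKO HFD column is blue for all but Gpt2 and Bckdhb, with Cth darkest.

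In LKO against F/F on chow, 0 of the 43 genes were at least 1.5-fold lower and 0 at least 1.5-fold higher. Of all genes with a value, 3.46% were lower and 3.52% higher. Among the 1915 genes with a mean signal of at least 4000, 0.679% were lower and only 12 genes were higher. The median difference of the 43 genes was 0.03, and it was 0.0033 over all genes and 0.0333 over the bright ones. Of the 43 genes, 16 lay below 0, against 49.3% of all genes and 39.7% of the bright ones. On HFD, 5 genes were at least 1.5-fold lower in LKO and 0 were higher, beside 6.08% and 8.07% of all genes. Among the 1915 bright genes, 5.43% were lower and only 25 genes were higher. The median of the 43 genes was -0.34, against -0.03 over all genes. It was -0.15 over the genes with a mean signal of at least 4000 and -0.19 over the 10 hepatocyte markers. Of the 43 genes, 40 (93.0%) lay below 0, against 54.1% of all genes and 75.8% of the bright ones. The genotype difference was lower on HFD than on chow for 39 of the 43 genes, against 55.7% of all genes and 78.2% of the bright ones. Its median shift was -0.40, against -0.05 over all 14619 genes with both values.

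In HFD against chow, 8 genes were at least 1.5-fold lower in F/F and 20 in LKO. Over all genes, 9.6% were lower in F/F and 11.7% in LKO, and of the genes with a mean signal of at least 4000, 8.77% and 18% were lower. Below 0 lay 33 of the 43 genes in F/F and 42 in LKO, against 52.2% and 56.5% of all genes and 64.8% and 82% of the bright ones. None of the 43 was at least 1.5-fold higher in either genotype, beside 13.2% and 15.4% of all genes. Of the 1915 genes with a mean signal of at least 4000, only 74 were higher in F/F and 56 in LKO. The medians were -0.27 in F/F and -0.55 in LKO, against -0.02 and -0.07 over all genes and -0.10 and -0.26 over genes with a mean signal of at least 4000. At 2-fold, 2 genes were lower in F/F and 9 in LKO, with 2.94% and 4.07% of all genes past that mark. The comparisons share arrays (the array of HFD-fed LKO liver enters 2 of them, as does each other array), so their values stand side by side and are not independent.

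How far these genes were lower on HFD depends on what the arrays are set to. The 75th percentile of the signal was 222 and 213 in chow-fed F/F and LKO liver, and 263 and 296 after HFD. Dividing by it lowers every gene of an HFD array against chow by the same log2 amount, bright or not. On this scale the 10 hepatocyte markers gave medians of -0.30 in F/F and -0.53 in LKO, close to those of the 43 genes. Albumin (Alb) itself had unscaled signals of 231569, 228565, 221091 and 222615 in that order. Once each array was set to the mean of the hepatocyte markers instead, the 43 genes had a median of 0.10 for HFD against chow in F/F, now above 0, and -0.02 in LKO. In LKO against F/F on HFD their median was still -0.17 on that scale, with 33 of 43 genes below 0, while that of the markers was -0.02. Over all genes on that scale the median was 0.14, and 30.7% lay below 0. Over 15 processing settings, the median of the 43 genes minus that of all genes was between -0.32 and -0.20 for LKO against F/F on HFD, between -0.25 and -0.14 for HFD in F/F, and between -0.50 and -0.32 for HFD in LKO. Dividing an array by 1 number cannot change this gap (beyond genes known only by a bound), nor that to the hepatocyte markers, so among the settings the gap could move only with normexp, quantile normalization, another choice of probes or another filter. Normexp gave gaps to all genes of -0.26, -0.17 and -0.35, and quantile normalization -0.24, -0.14 and -0.32. For HFD against chow, quantile normalization gave the 43 genes medians of -0.12 in F/F and -0.31 in LKO. The markers had -0.02 and 0.0056. This method gives each rank the same value on every array, so the markers, ranked near the top of all arrays, stay near 0. For LKO against F/F their medians were -0.0029 on chow and 0.0043 on HFD. The separation under this setting therefore cannot show that the 43 genes differ from the markers. Whether hepatocytes held less of these RNAs or made up less of the tissue cannot be told apart in RNA of whole liver.

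**Figure D2:**
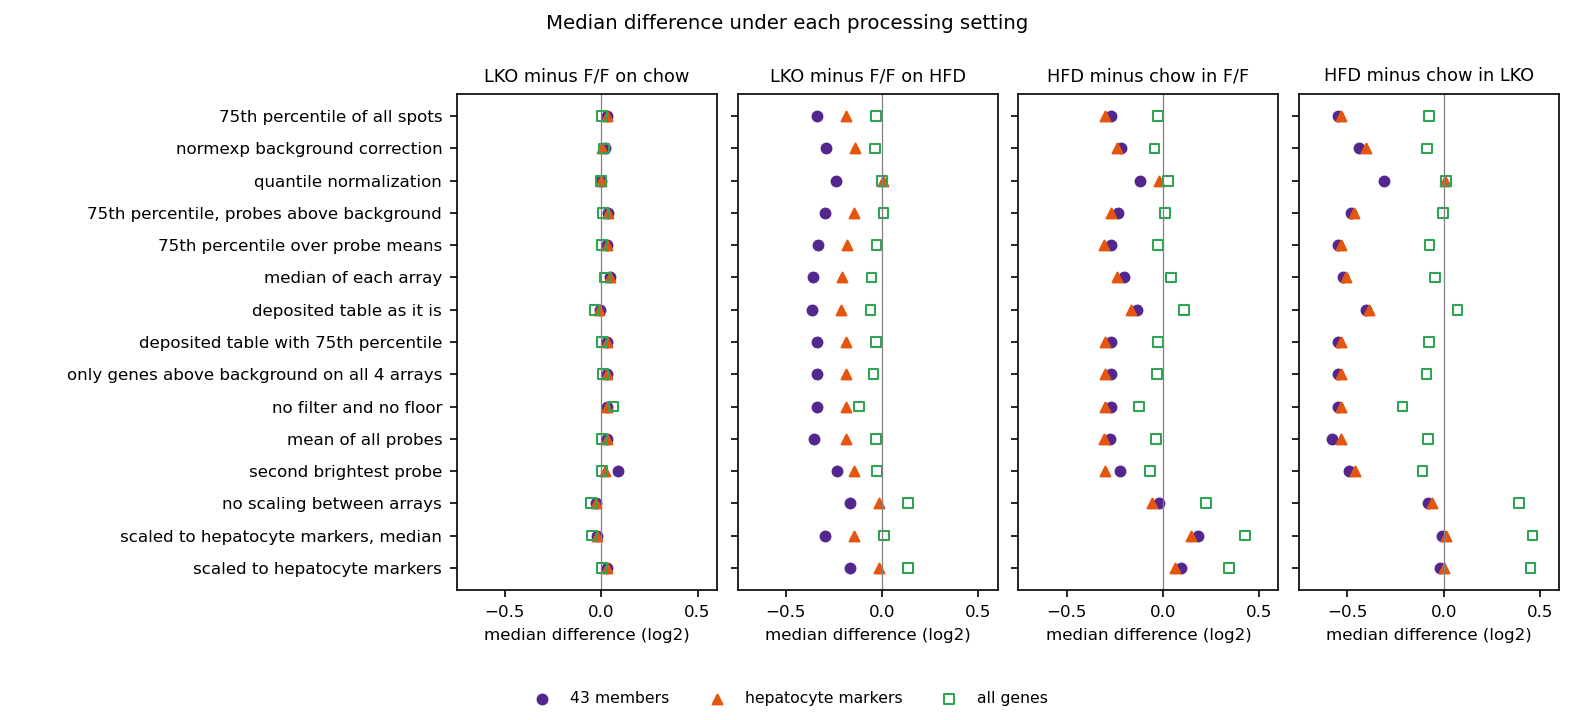
Median log2 difference in each comparison (panels) under 15 processing settings (rows), for the 43 genes (filled circles), the 10 hepatocyte markers (triangles) and all genes with a value (open squares); the second brightest probe exists for 16 of the 43. In the 3 comparisons that involve HFD, the circles lie left of the squares, a gap that rows differing by 1 factor per array share by construction, and the HFD minus chow circles reach 0.18 in F/F when arrays are set to the hepatocyte markers.

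The urea cycle held the gene with the largest difference for HFD in F/F. Cps1 makes carbamoyl phosphate from ammonia in mitochondria and is the entry step. Its signal was 7877 and 7326 in chow-fed F/F and LKO liver, and 4325 and 4986 after HFD. Both HFD arrays lay below both chow arrays, with differences of -1.11 in F/F (2.16-fold) and -1.03 in LKO (2.04-fold), and the genotypes differed by 0.04 on HFD. In F/F, the difference of Cps1 was between -1.11 and -0.66 under every setting that gave it a value. In LKO it was between -1.03 and -0.48, and past 1.5-fold under 10 of 13 other settings.

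Asl, which splits argininosuccinate into arginine and fumarate, had signals of 14058, 14704, 10740 and 9853 in chow-fed F/F, chow-fed LKO, HFD-fed F/F and HFD-fed LKO liver, the order used from here on. It was lower on HFD, at -0.64 in F/F and -1.05 in LKO. Otc joins carbamoyl phosphate to ornithine, and its signals were 13821, 12879, 13570 and 10728. The array that stood apart was LKO HFD, at -0.73 against LKO chow and -0.51 against F/F HFD. Nags makes the activator that Cps1 needs. Its signals were 1357, 1337, 1103 and 1158, and it was lower on HFD, at -0.55 in F/F and -0.68 in LKO. The other urea cycle genes did not reach 1.5-fold in any comparison. Ass1 and Arg1, the enzymes before and after Asl, had differences between -0.55 and -0.04 and between -0.38 and 0.02. The mitochondrial carriers for ornithine (Slc25a15) and for aspartate and glutamate (Slc25a13) were at -0.49 and -0.39 in LKO against F/F on HFD and at 0.14 and -0.06 for HFD in F/F.

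**Figure D3:**
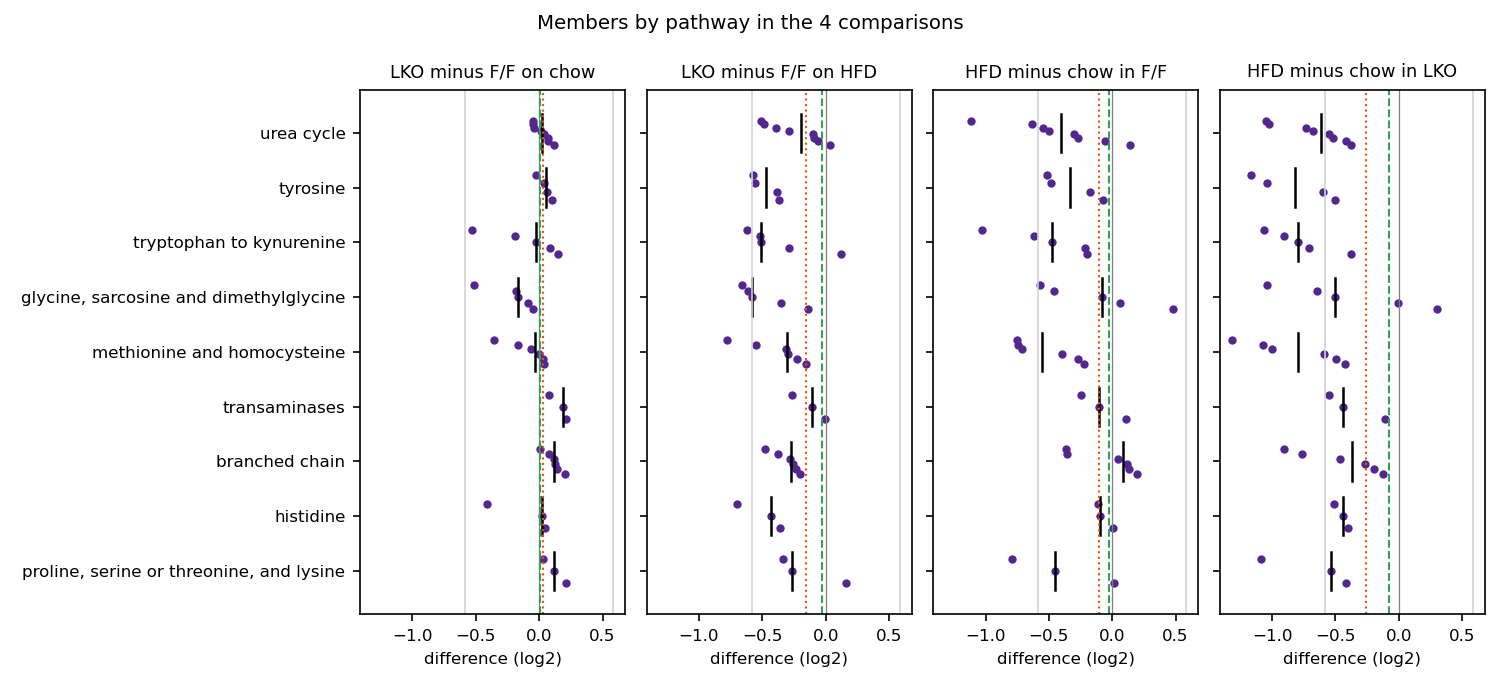
Log2 difference of each of the 43 genes (points) in the 4 comparisons (panels), by pathway, with the median of the pathway (black bar), the median of all genes (dashed) and of genes with a mean signal of at least 4000 (dotted), and grey lines at 1.5-fold. On chow the points cluster at 0, with Kynu, Gldc, Amdhd1 and Cbs to the left; for HFD in LKO the medians of all 9 pathways lie left of both reference lines.

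The 4 tyrosine genes had medians of -0.47 for LKO against F/F on HFD and -0.82 for HFD in LKO. Tat, the transaminase that starts tyrosine breakdown, had signals of 28714, 27185, 24325 and 18367. Hpd, which makes homogentisate, had signals of 36379, 37534, 30281 and 23158. For both genes the LKO HFD array was the lowest and the chow arrays were nearly level. Hpd gave -1.17 for HFD in LKO, -0.51 for HFD in F/F, and -0.55 for LKO against F/F on HFD, and Tat gave -1.04, -0.49 and -0.57. Hpd in LKO was one of 2 diet differences in LKO that were past 1.5-fold under every setting that gave a value, the other being Cth. The later enzymes differed less. Fah, the last step, had signals of 12820, 12682, 13458 and 11605 and a difference of -0.60 for HFD in LKO, and Hgd gave -0.50 there and stayed within 1.5-fold throughout.

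In the kynurenine pathway of tryptophan, the enzymes differed among themselves. Tdo2 opens the ring of tryptophan, and its signals were 52873, 44463, 45082 and 32861. LKO HFD was lowest, at -0.62 against F/F HFD and -0.91 against LKO chow. Afmid, which releases kynurenine from its formyl form, had signals of 1419, 1514, 824 and 1006. Its HFD arrays lay below its chow arrays, at -1.03 in F/F and -1.06 in LKO, LKO was not below F/F on either diet, and its second probe gave -0.95 and -0.98. Kmo (11917, 12180, 12315 and 9715) and Haao (23906, 22607, 24442 and 19157), which act further down, had their lowest signal in LKO HFD, and differed by -0.80 and -0.71 between HFD and chow in LKO. Kynu, which cleaves kynurenine and its hydroxy form, had signals of 2350, 1563, 1817 and 1669. F/F chow was the high array here. Kynu was at -0.53 in LKO against F/F on chow, the largest difference of the 43 genes on chow, and at -0.62 for HFD in F/F, and its dimmer probe gave smaller values of -0.25 and -0.33.

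Glycine, sarcosine and dimethylglycine are broken down in mitochondria, with the one-carbon units passed to folate. Agxt, a transaminase that turns glyoxylate into glycine, had signals of 24611, 20805, 19728 and 14002. It was lowest in LKO HFD, at -0.66 against F/F HFD and -1.04 against LKO chow, and it was at -0.57 for HFD in F/F. Sardh (sarcosine dehydrogenase) had signals of 8867, 8250, 10998 and 8070. Here F/F HFD was the array with the highest signal, which gave -0.61 for LKO against F/F on HFD and 0.06 for HFD in F/F. Dmgdh, one step earlier, had signals of 15759, 13500, 13611 and 11949 and was at -0.65 for HFD in LKO. The glycine cleavage genes Gldc and Amt stood apart from the rest of the list. Gldc was the only one of the 43 above 0 for HFD in LKO, at 0.30, and was at -0.52 in LKO on chow. Amt had weak signals, from 56.5 to 104. It was the highest of the list for HFD in F/F, at 0.48, and just short of 1.5-fold for LKO against F/F on HFD, at -0.58.

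The methionine and homocysteine genes included the largest difference of all, that of Cth. Methionine is activated by Mat1a, its methyl group is handed to glycine by Gnmt, Ahcy releases homocysteine, and Cbs and Cth carry the sulfur on to cysteine. Cth had signals of 10574, 9045, 7664 and 5027. LKO HFD was the lowest array, at -0.78 (1.71-fold) against F/F HFD and -1.32 (2.49-fold) against LKO chow, and F/F HFD was at -0.71 against F/F chow. Cth was the only one of the 5 genes lower in LKO on HFD that passed 1.5-fold under every setting that gave a value, with differences from -0.80 to -0.61.

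Gnmt had signals of 69159, 67829, 48968 and 44652, with differences for HFD of -0.75 in F/F and -1.07 in LKO. Ahcy had signals of 3924, 3619, 2771 and 2510 and differences of -0.75 and -0.999. For both genes the HFD arrays were below the chow arrays, and LKO against F/F on HFD gave -0.30 and -0.31, near the median of the 43 genes. Mat1a had signals of 28048, 27754, 25325 and 25614 and reached 1.5-fold only for HFD in LKO, at -0.59, a value that was -0.05 when arrays were set to the hepatocyte markers. Cbs was lower in LKO on both diets, at -0.35 on chow and -0.55 on HFD. Bhmt, which returns homocysteine to methionine, had signals from 101599 to 107049 and differences from -0.49 to 0.00. Its second probe gave -0.60 where the first gave -0.22 for LKO against F/F on HFD, the widest gap between probes of any of these genes (0.38).

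**Figure D4:**
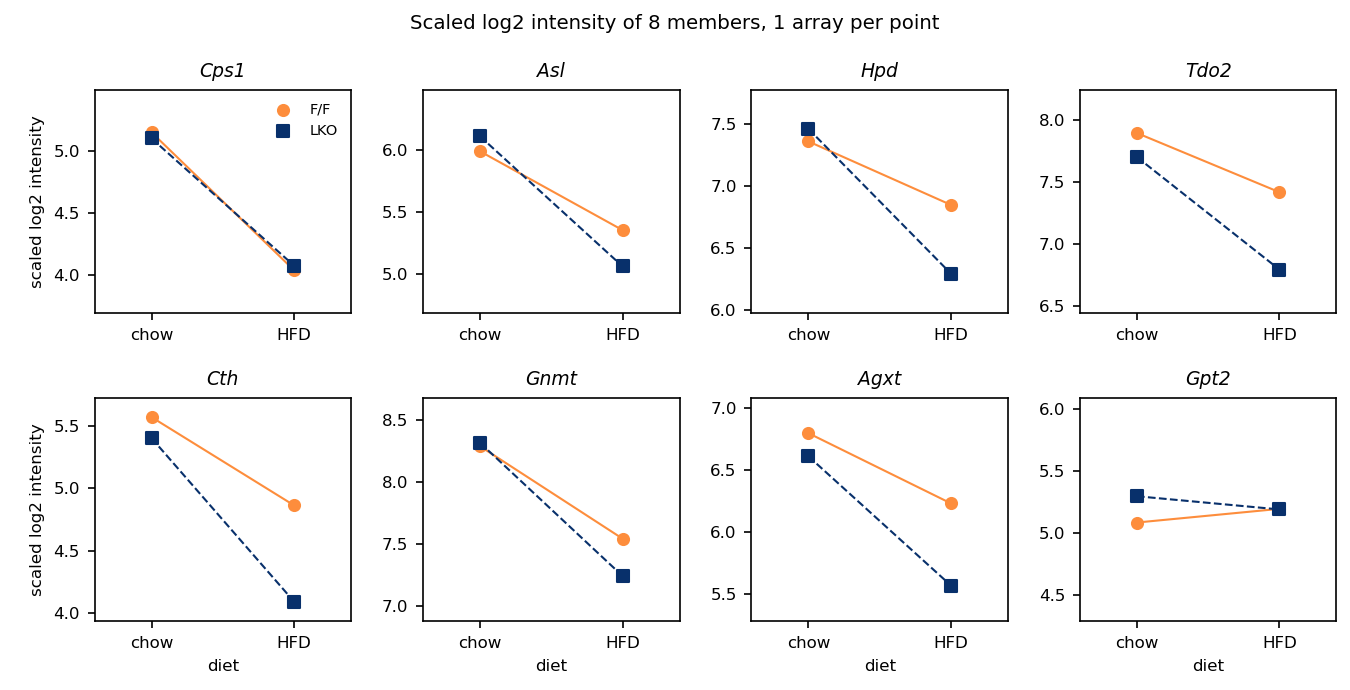
Scaled log2 intensity of 8 of the 43 genes, chosen after their values were seen, on chow and HFD in F/F (circles, solid line) and LKO (squares, dashed line), 1 array per point; every panel spans the same log2 range. Cps1 runs nearly together in both genotypes, Gnmt is lower in LKO on HFD (-0.30), Cth, Hpd, Tdo2 and Agxt are lowest in LKO on HFD, and Gpt2 is nearly flat.

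Among the transaminases and branched chain genes, 2 of 9 reached 1.5-fold, both for HFD in LKO. Got1, Gpt and Gpt2, which exchange amino groups of aspartate and alanine, stayed within 1.5-fold in all comparisons, and Gpt2 differed by -0.0048 between the genotypes on HFD. Of the 6 branched chain genes, 4 lay above 0 for HFD in F/F and all 6 lay below 0 for LKO against F/F on HFD, between -0.48 and -0.20. Dbt, the core subunit of the branched chain keto acid dehydrogenase, had signals of 275, 279, 255 and 206 and a difference of -0.91 for HFD in LKO. Ivd, of leucine breakdown, had signals of 4770, 5002, 4404 and 4072 and -0.77 there. The other subunits Bckdha and Bckdhb gave -0.27 and -0.12 in the same comparison, and Mccc1 (leucine) and Hibch (valine) gave -0.20 and -0.47.

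Histidine breakdown runs from Hal through Uroc1 and Amdhd1 to Ftcd. Amdhd1 had signals of 2960, 2143, 3254 and 2247. Both LKO arrays were below both F/F arrays, at -0.41 on chow and -0.70 on HFD, and the diet differences were smaller, at -0.11 and -0.40. Its second probe gave -0.33 and -0.54 for the genotype. Uroc1 and Ftcd were level on chow (0.04 and 0.02) and lower in LKO on HFD (-0.36 and -0.43). Of the rest, Aass, the entry enzyme of lysine breakdown, had signals of 25976, 25505, 17819 and 16672. Its HFD arrays were lower, at -0.79 in F/F and -1.08 in LKO, and its second probe gave -0.67 and -1.004. Aldh4a1 (proline) differed by -0.53 for HFD in LKO, and Sdsl (serine and threonine) was one of 3 genes above 0 for LKO against F/F on HFD, at 0.16, with Afmid and Cps1.

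On HFD, 7 of the 43 genes were at least 1.5-fold lower in both genotypes, namely Cps1, Asl, Afmid, Gnmt, Ahcy, Cth and Aass, beside 4.77% of all genes and 7.68% of those with a mean signal of at least 4000. Ahcy in LKO, at 1.9985-fold, lay just under 2-fold. The RefSeq promoter table (build GRCm38.p6) holds 34 of the 43 genes and 4 of these 7. Upstream stretches of Afmid and Ahcy overlap the neighbouring genes Tk1 and Gm45609, and the 250 bases before the start site are printed for Aass and Gnmt as those of the set on the scale used here. Without scaling, or with arrays set to the hepatocyte markers, neither gene was past 1.5-fold in both genotypes. Both genes lie on the minus strand, Aass at chr6:23132987-23133236 and Gnmt at chr17:46729166-46729415, and capitals mark every match on either strand to the motifs listed after them.
Aass: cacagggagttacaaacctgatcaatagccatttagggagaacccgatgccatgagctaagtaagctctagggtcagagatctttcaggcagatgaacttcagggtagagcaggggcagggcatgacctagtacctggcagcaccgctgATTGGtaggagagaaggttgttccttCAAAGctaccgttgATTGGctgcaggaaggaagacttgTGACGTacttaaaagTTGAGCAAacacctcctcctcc
Gnmt: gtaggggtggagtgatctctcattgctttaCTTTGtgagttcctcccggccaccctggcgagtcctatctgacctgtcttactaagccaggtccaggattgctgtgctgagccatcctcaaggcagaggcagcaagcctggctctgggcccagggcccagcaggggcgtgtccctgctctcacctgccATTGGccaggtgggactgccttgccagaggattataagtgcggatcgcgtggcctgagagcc

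A total of 12 motifs were searched on both strands of these 250 bases, and 4 of them occur in the stretches shown. The CCAAT box (CCAAT) starts at -101 and -61 in Aass and at -62 in Gnmt, and is held by 37.5% of all 27025 promoters. The HNF4 core (CAAAG) starts at -75 in Aass and at -220 in Gnmt and is held by 52.2%. The core of the cAMP response element (TGACGT) at -37 and a C/EBP site (TTGCNNAA) at -22 occur in Aass and are held by 7.29% and 10.8%. Motifs searched without a match in either stretch, with their share of all promoters, were the C/EBP palindrome TTGCGCAA (0.185%), the full cAMP response element TGACGTCA (1.77%), the TATA box TATAAA (14.3%), the glucocorticoid response element (0.44%), the HNF4 site CAAAGTCCA (0.451%), the HNF1 site (0.074%), the ATF4 composite site TGATGNAA (3.91%) and the FOXA site TGTTTAC (3.54%). The palindrome, the full response element and the HNF4 site contain the letters of the C/EBP site, the cAMP response core and the HNF4 core. Among the 34 genes of the list with a promoter, 17 (50%) hold CCAAT, 15 (44.1%) CAAAG, 2 (5.88%) the C/EBP site and 1 (2.94%) the cAMP response core. These are matches of letters and not sites of binding.

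Other genes of the same pathways were read as lists. The breakdown and nitrogen lists also hold some genes of synthesis, such as Aldh18a1 and Gatm, and their counts include these. Of the other breakdown and nitrogen genes, 9 of the 79 with a value were at least 1.5-fold lower in LKO on HFD and 4 were higher, beside 6.08% and 8.07% of all genes, with a median of -0.26. For HFD in LKO, 20 of 80 were lower and 7 higher (median -0.29), beside 11.7% and 15.4% of all genes. In F/F 6 of 80 were lower and 5 higher (median 0.01), beside 9.6% and 13.2%. These lists were thus nearer to 0 than the 43 genes for HFD in F/F. Hal, the first enzyme of histidine breakdown and the step before Uroc1, had signals of 8153, 5542, 7658 and 3830. LKO was the lower genotype on both diets, at -0.50 on chow and -1.17 on HFD. Acmsd, a branch of the kynurenine pathway, was lower on HFD, at -1.25 in F/F and -1.29 in LKO, at signals between 97.6 and 196. Oat, which turns ornithine into glutamate semialdehyde, was at -1.01 for HFD in LKO. Gatm, the first enzyme of creatine synthesis, was 2.01-fold higher on HFD in F/F and 3.14-fold in LKO, from signals of only 48.0 and 41.2 on chow.

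**Figure D5:**
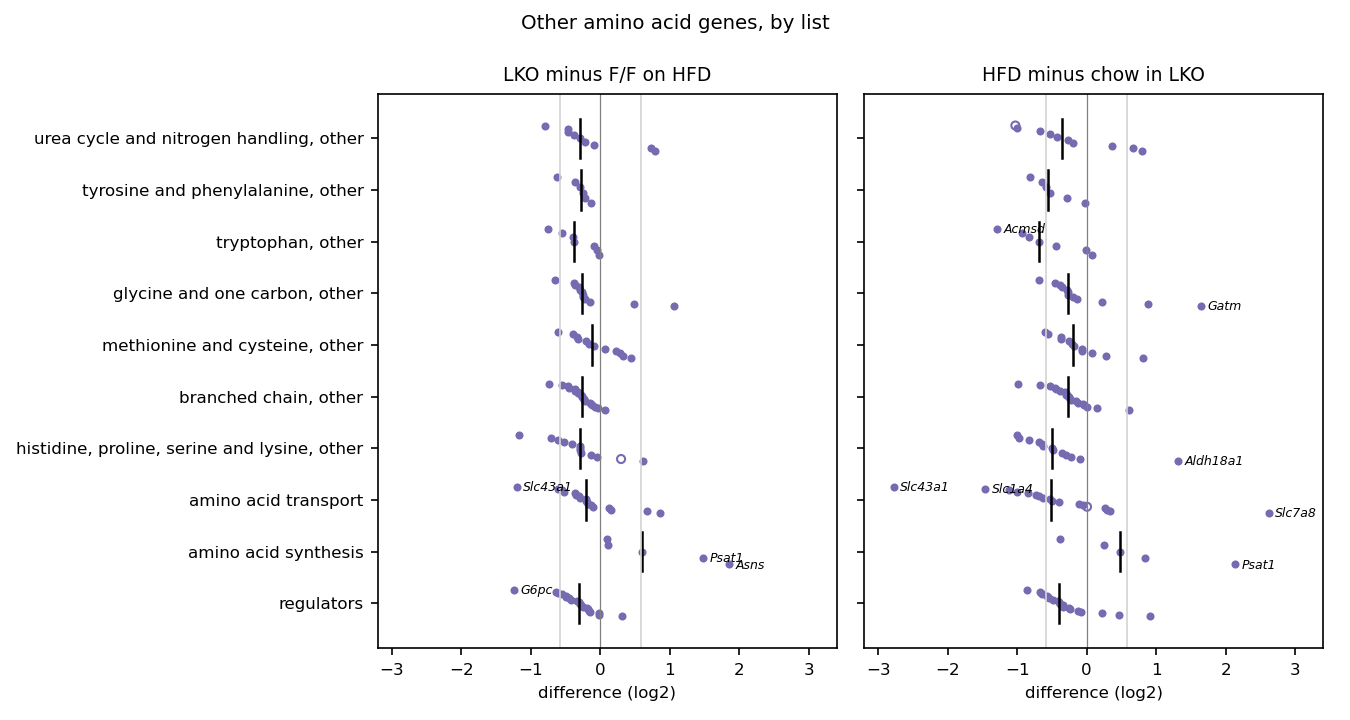
Log2 difference of each other amino acid gene (points; open where the gene was above background on 1 array only, so that the value is a bound), by list, for LKO minus F/F on HFD and HFD minus chow in LKO, with list medians (black bars) and grey lines at 1.5-fold. Genes at least 1.2 log2 units apart are named; the medians of the breakdown lists lie left of 0 and that of the amino acid synthesis list right of 0.

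Transporters for amino acids reached larger differences than the enzymes. Slc43a1, which carries large neutral amino acids, had signals of 261, 306, 127 and 61.9 and differed by -2.78 for HFD in LKO and -1.28 in F/F. Its dimmer probe gave -1.49 and -1.06, and for LKO against F/F on HFD the probes went opposite ways, at -1.21 and 0.30. Slc7a8 went the other way, with signals of 28.9, 22.4, 94.1 and 191 and differences for HFD of 1.46 and 2.62. Slc1a4 and Slc1a2, carriers of neutral amino acids and of glutamate, were at -1.46 and -1.12 for HFD in LKO, and Slc1a4 at -1.03 in F/F. In all, 8 of 18 transport genes were at least 1.5-fold lower and 1 higher for HFD in LKO, beside 11.7% and 15.4% of all genes.

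Genes that make amino acids differed in the other direction between the genotypes on HFD. Of 5, all were above 0 for LKO against F/F on HFD and 3 were at least 1.5-fold higher, beside 8.07% of all genes. Asns (asparagine synthetase) had signals of 214, 423, 111 and 452. Both LKO arrays were above both F/F arrays, by 1.04 on chow and 1.86 on HFD, and the second probe gave 0.40 on chow. For HFD against chow, Asns was lower, at -1.19 in F/F and -0.38 in LKO. Of the 5 genes, 2 lay below 0 for HFD in F/F and 1 in LKO, beside 52.2% and 56.5% of all genes. Psat1, of serine synthesis, had signals of 12.7, 17.0, 33.0 and 103 and was higher in LKO by 1.48 on HFD and on HFD by 1.13 in F/F and 2.13 in LKO. Aldh18a1, the first enzyme of proline synthesis, is not among the 5 and was counted above with the breakdown and nitrogen lists. It was higher on HFD in LKO by 1.32, at signals from 14.6 to 50.5. A list of 20 genes held regulators of these pathways and also genes that are not regulators, such as the gluconeogenic enzyme genes G6pc and Pck1. Of this list, 3 were at least 1.5-fold lower in LKO on HFD and 0 higher (median -0.30), beside 6.08% and 8.07% of all genes. Among the 3 was G6pc, at -1.24.

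Markers of other cells differed in the same comparisons. Of 13 markers of the exocrine pancreas, 12 were above background. On HFD all 12 were at least 1.5-fold higher in LKO, beside 8.07% of all genes. On chow all 12 lay below 0 and 11 were at least 1.5-fold lower in LKO, beside 3.46% of all genes. The summed signal of the 13 was 5988, 3359, 3742 and 15525. The brightest of these markers, Amy2a5, went from 1553 in F/F HFD to 7177 in LKO HFD. Kupffer cell and macrophage markers summed to 25396, 23027, 39112 and 55422. Of these 8, 3 were at least 1.5-fold higher and 2 lower in LKO on HFD, beside 8.07% and 6.08% of all genes. All 7 stellate cell markers were above 0 in that comparison, and 0 of them reached 1.5-fold. Their summed unscaled signal was 22364 in F/F HFD and 29177 in LKO HFD, of which Dcn alone gave 20607 and 26717. The 4 red cell markers with a value were all at least 1.5-fold lower in LKO on HFD, beside 6.08% of all genes. The part of these cells in the values of the amino acid genes was not tested.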

How the data were processed

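One-colour Agilent arrays, 4 in all, carried liver RNA of chow-fed or HFD-fed mice of each genotype, 1 array per condition. The authors deposited spot intensity from Agilent Feature Extraction 12.0.3.1 (submitters' processing notes), background-subtracted, and a table of values in which the intensity of each array is multiplied by 1 factor (2.60, 2.63, 2.41 and 2.10 for chow-fed F/F, chow-fed LKO, HFD-fed F/F and HFD-fed LKO liver, with column medians of 34.5, 33.2, 36.1 and 36.0). How the factors were made is not given in the sources used here. Here, processed signals were put on the log2 scale and each array's 75th percentile was subtracted (Python 3.11.15, pandas 2.3.3, numpy 2.4.6). Accessions of 33767 of 56605 probes matched the RefSeq table of GRCm38.p6. The design of the arrays is older, so no coordinates of probes are given. Of all spots, 53.0% to 57.0% were well above background, and the number of arrays limits the precision. A gene above background on 1 array of a comparison has a bound, and on none no value. The gene lists and members were chosen with earlier results of these data known. All members at least 1.5-fold apart in any comparison are named, as are other genes of the pathways 2-fold apart and measured on both arrays. One result under this rule is not reported here, and the counts of the lists include its gene. The motifs, the promoters shown and the level of 4000 were chosen after values were seen. Alternatives included normexp with offset 50 (limma 3.58.1, R 4.3.3). The steps were tested on simulated data. Figures were drawn with matplotlib 3.10.9.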

Additional observations from a re-analysis of the deposited data

Results flagged for a closer look

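None of the 43 genes was at least 1.5-fold higher in LKO on one diet and at least 1.5-fold lower on the other. The same question was then put to the other genes of the pathways, a widening made after values were seen, and among the results given here it picked out G6pc, for which the genotype difference changed direction with diet. G6pc (the catalytic subunit of glucose-6-phosphatase) had signals of 8475, 13171, 21036 and 10028 in chow-fed F/F, chow-fed LKO, HFD-fed F/F and HFD-fed LKO liver. LKO differed from F/F by 0.69 on chow and -1.24 on HFD, and HFD from chow by 1.06 in F/F and -0.86 in LKO. With 1 array per condition, the change of direction was not tested.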

How the results depend on the processing

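Each result was recomputed under other settings, 3 of them chosen after seeing the data (no scaling between arrays, and each array set to the median, or in its place the mean, of the 10 hepatocyte markers; both forms are given). Of the 33 single differences past 1.5-fold, 33 stayed past it with the percentile over probe means, the deposited table with the 75th percentile, no filter, and only genes above background on all arrays, 32 with the mean of all probes, 29 with the array median, 27 with the percentile over probes above background, 26 with normexp, 25 with the deposited table as it is, 20 with quantile normalization, 8 without scaling and 6 or 5 with the median or mean of the hepatocyte markers, and none changed sign. Of 8 that a second probe could check, 6 stayed. Past 1.5-fold under all of them were 1 of 5 for LKO against F/F on HFD (Cth), 1 of 8 for HFD in F/F (Cps1) and 2 of 20 for HFD in LKO (Hpd and Cth). With quantile normalization the medians were -0.24 for LKO against F/F on HFD, -0.12 for HFD in F/F and -0.31 for HFD in LKO, with 5 and 12 genes lower in the diet comparisons. Of all genes, 8.20% and 9.52% were lower there. Normexp gave -0.44 for HFD in LKO. The deposited table as it is gave -0.13 and -0.40 for HFD in F/F and LKO, with 5 lower and 1 higher in F/F, beside 6.32% and 18.0% of all genes. The percentile over probes above background left 3 genes lower in LKO on HFD, beside 5.34% of all genes. The second probes left 1 (median -0.23), with 2 and 7 lower on HFD in F/F and LKO. Beside these were 3.97%, 7.85% and 9.38% of all genes with a second probe. Without scaling, 1 gene (Kynu) was lower in LKO on chow and 1 on HFD (median -0.17), and for HFD 2 were lower and 1 higher in F/F (median -0.0207) and 5 lower and 1 higher in LKO (median -0.0795). Of all genes, 4.25% were then lower in LKO on chow and 3.57% on HFD. For HFD, 4.51% were lower and 23.1% higher in F/F, and 3.51% and 34.1% in LKO. With the mean of the hepatocyte markers, 1 gene was lower in LKO on HFD (median -0.17), and for HFD 2 were lower and 1 higher in F/F, where the median reversed to 0.10, and 2 lower and 1 higher in LKO (median -0.0184). Of all genes, 3.54% were lower in LKO on HFD on that scale. For HFD, 3.42% were lower and 29.7% higher in F/F, and 3.02% and 38.3% in LKO. With the median of the hepatocyte markers, 3 of the 43 genes were lower in LKO on HFD, beside 5.29% of all genes. For HFD 1 was lower and 3 higher in F/F, where the median reversed to 0.18, and 2 lower and 1 higher in LKO (median -0.0082). Of all genes, 2.75% were lower and 35.8% higher in F/F, and 2.97% and 39.0% in LKO. At 2-fold, 0, 2 and 9 genes were lower in LKO on HFD, on HFD in F/F and on HFD in LKO. The 7 genes lower on HFD in both genotypes were 5 to 7 under other settings, but 2 at 2-fold, 2 of 16 with second probes, 1 without scaling and 0 with either hepatocyte marker setting. Of all genes, 1.60% were lower in both without scaling, and 1.15% and 1.28% with the median and mean of those markers. The genotype difference was lower on HFD than on chow for 31 to 39 of 43 genes, and for 14 of 16 with second probes, and its median shift of -0.40 was -0.28 with quantile normalization, -0.18 without scaling and -0.23 with the mean of the hepatocyte markers. Over the settings it was lower on HFD for 28.7% (without scaling) to 60.2% (no filter) of all genes. The alternative settings themselves show that scaling moves these values, and other causes were not tested. No paired analysis was possible because each condition has 1 array.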
